A study of Mus musculus with 5 samples.

Results

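The neural RNA-binding and splicing regulators examined here were 10 mouse genes, Ptbp1, Ptbp2, Srrm4, Nova1, Nova2, Elavl2, Elavl3, Elavl4, Msi1 and Msi2, out of 25414 genes in the tables. They were chosen by name, by matching the RefSeq transcripts to these symbols and summing FPKM (fragments per kilobase of transcript, scaled to the number of mapped fragments) per gene and sample. RNA-seq was performed on 2 samples of neural stem cells (NSC) and 3 samples of STO cells, which were compared to learn how the set differs between a neural stem cell and a fibroblast. NSC were primary cells of the C57BL/6 strain taken from embryonic mouse cortex, cultured for 5 to 8 passages as monocultures with EGF, bFGF, heparin and B27. STO is an established line of SIM mouse embryonic fibroblasts, resistant to thioguanine and ouabain, labelled C57BL/6 and beyond 30 passages, and was grown in DMEM with serum. Origin, drug resistance, medium, passage and cell type differed together between the groups and cannot be told apart. The labels do not say that replicates came from separate cultures, so each p-value measures the spread between these samples, which may be technical.

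In neural development, a relay of RNA-binding proteins changes how transcripts are spliced, kept stable and translated. The polypyrimidine tract proteins repress exons by binding runs of C and U, with PTBP1 found in most dividing cells and PTBP2 rising as neurons form. SRRM4 (nSR100) promotes the inclusion of neural microexons, NOVA1 and NOVA2 bind YCAY clusters to set neuronal exons, the neuronal ELAVL (Hu) proteins bind AU-rich and U-rich sequence and stabilise transcripts, and the Musashi proteins MSI1 and MSI2 control translation in stem and progenitor cells.

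The sequences of Ptbp1 and Ptbp2 are shown first, since the results turn on the level of one paralogue against the other. As background, PTBP1 protein represses a short exon in both transcripts, and skipping it shifts the reading frame and exposes the transcript to decay. The exon is 34 bases long in each gene, at chr10:79324759-79324792 on the plus strand in Ptbp1 and at chr3:119427530-119427563 on the minus strand in Ptbp2 (mm9, GENCODE exons read from the NCBIM37 genome, the same build). It reads 5′ to 3′ as follows.
Ptbp1 exon: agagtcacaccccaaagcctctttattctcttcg
Ptbp2 exon: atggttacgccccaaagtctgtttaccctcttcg
Of the 34 bases, 26 were identical, and the substitutions from Ptbp1 to Ptbp2, counted from 1 at the 5′ end of the exon, were G2T, A3G, C6T, A9G, C18T, C21G, T26C and T27C. The 200 bases of intron just before each exon, chr10:79324559-79324758 for Ptbp1 and chr3:119427564-119427763 for Ptbp2, are given next, with CTCTCT and TTCTCT, which are short motifs of the kind PTB proteins bind, in capitals.
Ptbp1 intron: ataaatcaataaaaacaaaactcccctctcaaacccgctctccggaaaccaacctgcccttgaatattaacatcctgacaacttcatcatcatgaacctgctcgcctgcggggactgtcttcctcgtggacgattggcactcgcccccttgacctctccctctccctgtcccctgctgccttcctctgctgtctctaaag
Ptbp2 intron: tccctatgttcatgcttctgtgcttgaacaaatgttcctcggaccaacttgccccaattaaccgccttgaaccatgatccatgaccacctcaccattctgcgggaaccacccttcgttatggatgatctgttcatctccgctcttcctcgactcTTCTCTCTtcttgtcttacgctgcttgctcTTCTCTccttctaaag
The Ptbp2 window held 1 CTCTCT and 2 TTCTCT, of which the CTCTCT overlaps a TTCTCT, and the Ptbp1 window held 0 of either. On the opposite strand both windows held 0. Among 152967 windows of the same length before annotated exons, 15.0% held CTCTCT, 20.5% held TTCTCT and 30.2% held either, and 97.1% held fewer matches than the Ptbp2 window. Only the introns were searched, and the Ptbp1 exon itself reads TTCTCT from base 26, which T26C and T27C change in Ptbp2. Pyrimidines made up 68% of the Ptbp2 window and 63% of the Ptbp1 window, against a median of 53%. Of all windows, 98.7% had a lower share than the Ptbp2 window and 95.3% a lower share than the Ptbp1 window. A match describes the letters and does not show that a protein is bound.

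Each file listed 40201 transcripts, of which 39951 were matched to a symbol, and 12292 genes with a mean of at least 1 FPKM in either cell type entered the test. The deposited intervals implied 15223341 to 22271895 fragments per sample, and Pearson's r between replicates over 11712 genes was 0.994 for NSC and 0.994 to 0.995 for STO. All 6 neural stem cell markers, Sox2 and Nes among them, were higher in NSC, with a sum of 3811 to 4028 FPKM in NSC and 0.044 to 0.072 FPKM in STO. All 6 fibroblast markers were lower in NSC, with a sum of 1.10 to 1.62 FPKM against 1032 to 1110 FPKM, so both labels fitted their defining markers. Markers of glia were also higher in NSC, as were all 4 astrocyte markers and the 3 tested of 4 oligodendrocyte markers. The astrocyte markers summed to 70.4 to 71.4 FPKM in NSC and 0.242 to 0.432 FPKM in STO, and the oligodendrocyte markers to 37.0 to 39.7 and 0.915 to 1.07 FPKM. Each tested marker of these lists reached a mean of 1 FPKM in a single cell type, so its entry to the test fixed the direction of its difference.

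Most of these regulators were more abundant in NSC, and Ptbp1 was the exception. Of the 9 that passed the level filter, 8 were higher in NSC and 1 was lower (limma on log2(FPKM + 1), Benjamini-Hochberg adjusted p under 0.05 over all genes tested). Srrm4 was under the filter in both cell types and was not tested. The cell types differed widely, so that 85.6% of all genes tested were called, 43.7% higher and 41.9% lower in NSC. The median difference of the 9, NSC minus STO on the log2(FPKM + 1) scale, was 2.81, and the median over all genes tested was 0.023. Nova2, Elavl3, Elavl4 and Msi1 passed the level filter through NSC alone, so the filter fixed the direction of their differences. The members were also chosen with earlier results of these data known, so these counts and medians are a description. Rescaling every sample to the same sum moved the median of all genes by -0.16 on that scale, and 8 of the 9 calls held under that and the other 11 alternatives, the exception being Elavl2. In all 10 genes the NSC and STO samples did not overlap, with NSC above in 9 of them; the groups did not overlap in 89.9% of genes tested, with NSC above in 46%. Bulk RNA cannot tell fewer cells that express a gene from less RNA of it per cell.

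**Figure D1:**
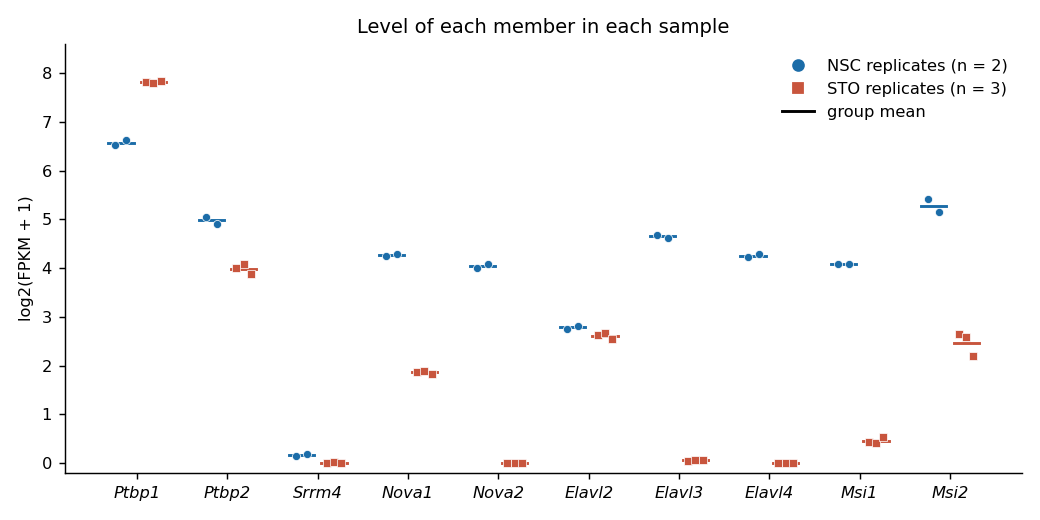
Level of the 10 regulators in each sample as log2(FPKM + 1), with blue circles for the 2 NSC samples, red squares for the 3 STO samples and short lines for the group means. Ptbp1 is the only gene whose STO squares lie above its NSC circles, and Nova2 and Elavl4 lie at 0 in all 3 STO samples.

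**Figure D2:**
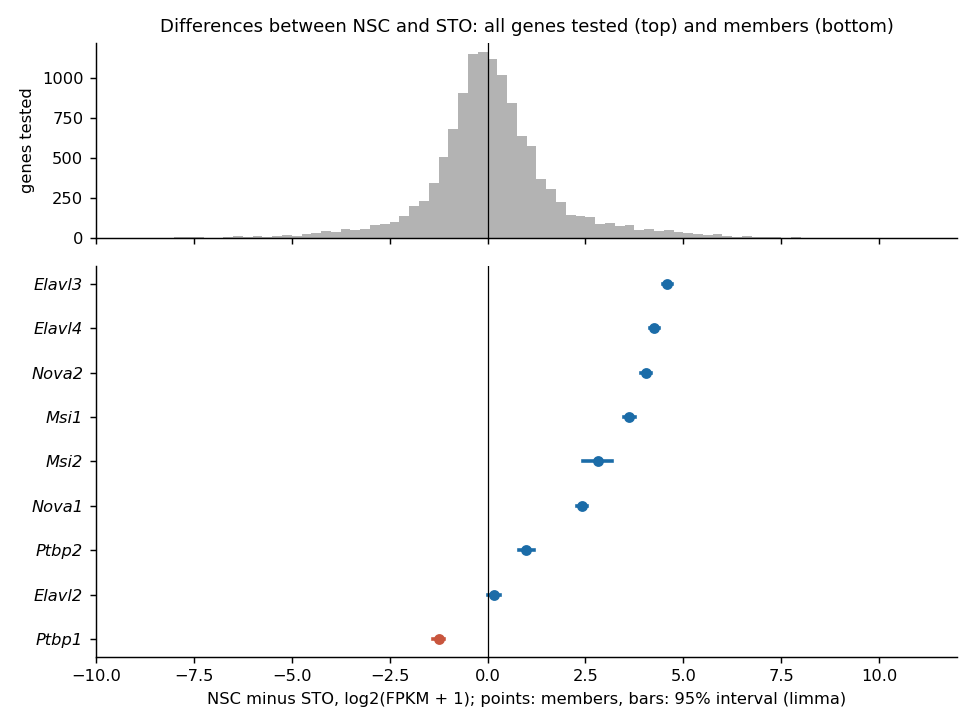
Differences between NSC and STO on the log2(FPKM + 1) scale, for all 12292 genes tested as a histogram in bins of 0.25 (top), and for the 9 tested regulators as points with 95% intervals from limma (bottom). Elavl3 lies farthest to the right at 4.59 and Ptbp1 to the left of 0 at -1.25.

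Ptbp1 and Ptbp2, which encode the PTB proteins, differed between the cell types in opposite directions. Ptbp1, the general repressor, had 91.4 and 97.7 FPKM in NSC and 227, 223 and 228 FPKM in STO. It was the highest of the 10 genes in both cell types, and every STO sample lay above every NSC sample. The STO mean was 2.39 times the NSC mean, a difference of -1.25 ± 0.057 (SE) on the log2 scale (limma, n = 2 and 3, adjusted p = 2.31e-06). Ptbp2, its neural paralogue, had 32.2 and 29.2 FPKM in NSC and 15.1, 15.9 and 13.8 FPKM in STO. The NSC samples were higher without overlap, by 2.05-fold or 0.99 ± 0.078 (SE) on the log2 scale (limma, n = 2 and 3, adjusted p = 3.35e-05). Ptbp2 was thus not restricted to NSC and was the second most abundant member in STO. The remaining paralogue, Ptbp3, had 8.88 and 9.90 FPKM in NSC and 29.0, 33.2 and 26.0 FPKM in STO, and was 3.13-fold higher in STO (difference -1.55, adjusted p = 1.86e-05 by limma).

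The ratio of the 2 FPKM values within a library does not depend on the scaling between libraries. Ptbp1 exceeded Ptbp2 by 2.84- and 3.35-fold in NSC and by 14.96-, 14.04- and 16.54-fold in STO. As log2 of Ptbp2 over Ptbp1, with 1 FPKM added to each, the ratio was -1.59 ± 0.17 (SD, n = 2) in NSC and -3.83 ± 0.11 (SD, n = 3) in STO. The groups did not overlap, and the difference of 2.24 had a two-sided exact permutation p of 0.1, the smallest that 2 samples against 3 allow (0.12 after Benjamini-Hochberg adjustment over the 6 paralogue ratios computed). With 1 FPKM added the ratio does depend on scaling, and after rescaling to a common sum the difference was 2.25. Ptbp1 remained the more abundant transcript in both cell types.

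Both genes were listed with a pair of transcripts above 0, shown in the plot of FPKM by transcript. In Ptbp1, which lies at chr10:79317177-79327180, the transcript NM_001077363 made up 44.9% and 45.1% of the gene in NSC and 65.4%, 65.6% and 63.5% in STO. Its level was 3.44-fold higher in STO, and that of NM_008956 was 1.53-fold higher (transcript differences -1.76 and -0.60, adjusted p = 8.09e-06 and 0.000571 by limma). The 2 transcripts share most of their sequence, so that how their reads are divided is an estimate by Cufflinks. The share moved by 19.8 percentage points between cell types, against a median of 15.5 points over 3610 genes with several transcripts above 0. At least 1 share did not overlap between cell types in 65.4% of those genes. In Ptbp2, at chr3:119421660-119486306, NM_019550 made up 49.1% and 51.1% in NSC and 52.4%, 52.8% and 50.4% in STO, and the shares overlapped.

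**Figure D3:**
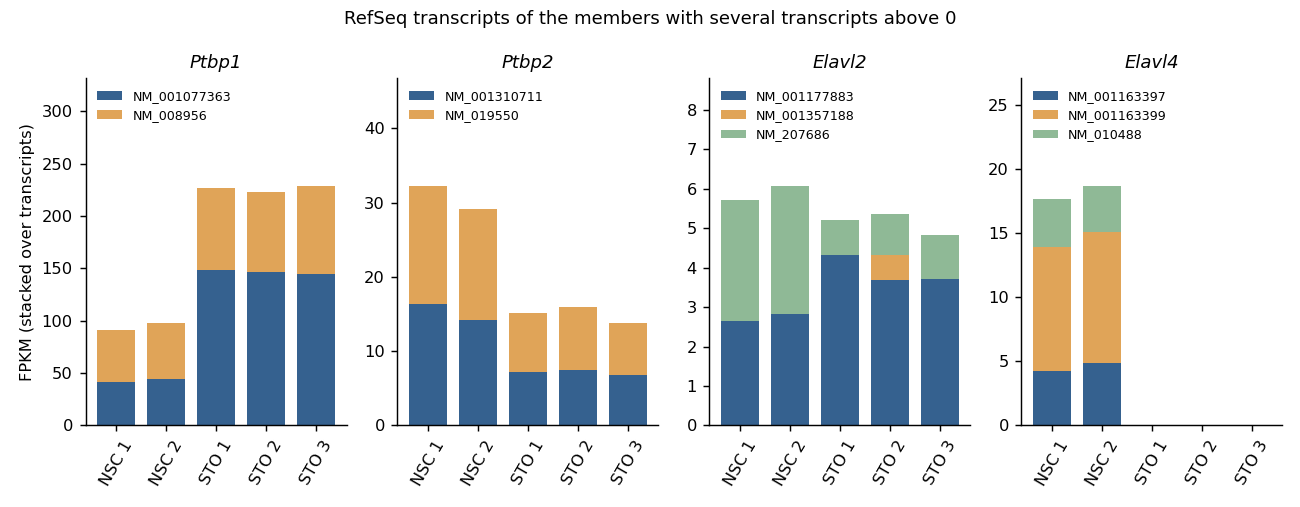
FPKM of each RefSeq transcript above 0, stacked within a sample, for the 4 genes with several such transcripts; each bar is 1 sample and each panel has its own axis. Ptbp1 is taller in STO with a larger NM_001077363 part, Elavl2 has bars of similar height with different composition, and Elavl4 has bars in NSC alone.

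Srrm4, the microexon activator, was close to the detection limit. It had 0.102 and 0.132 FPKM in NSC and 0.0059, 0.0104 and 0.0039 FPKM in STO. The deposited intervals correspond to 22.1 and 32.1 fragments in the NSC samples and at most 1.3 in an STO sample. The lower bounds were 0.0587 and 0.0854 FPKM in NSC and 0 in all STO samples, and the highest STO upper bound was 0.0283 FPKM. The intervals of the cell types therefore did not overlap, but only 3.21% of genes tested had a lower NSC mean than Srrm4. No fold change is given, because the STO libraries held too few fragments. Its relative Srrm3, which acts on an overlapping set of microexons, had 0.372 and 0.495 FPKM in NSC and 0.0225, 0 and 0 FPKM in STO and was not tested either.

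The NOVA genes were found at similar levels in NSC and differed in STO. Nova1 had 18.1 and 18.6 FPKM in NSC and 2.63, 2.73 and 2.55 FPKM in STO. It was 6.95-fold higher in NSC, with replicates close together (difference 2.41 ± 0.053 SE, adjusted p = 7.71e-08 by limma). Nova2 had 15.1 and 15.9 FPKM in NSC and was listed at 0 in all 3 STO samples (difference 4.04 ± 0.049 SE, adjusted p = 7.89e-09 by limma). No fold change is given against a level listed at 0. In NSC, Nova1 exceeded Nova2 by 1.20- and 1.17-fold. The low Nova1 level in STO rested on 416 to 602 implied fragments per sample, so it was not a trace.

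The neuronal ELAVL genes fell into a pair listed at or near 0 in STO and 1 gene, Elavl2, that was present in both cell types. Elavl3 (HuC) had 24.5 and 23.7 FPKM in NSC and 0.0353, 0.0462 and 0.0521 FPKM in STO. The STO levels correspond to 4, 6 and 9 fragments, which makes the 542-fold ratio of the means imprecise (difference 4.59 ± 0.048 SE, adjusted p = 5.75e-09 by limma). Elavl4 (HuD) had 17.7 and 18.7 FPKM in NSC and was listed at 0 in every STO sample (difference 4.26 ± 0.049 SE, adjusted p = 7.32e-09 by limma). Of all genes tested, 98.1% had a smaller difference than Elavl3 and 97.6% a smaller one than Elavl4. Elavl1 (HuR), the ubiquitous paralogue, had 19.0 and 18.7 FPKM in NSC and 21.6, 22.7 and 18.8 FPKM in STO. It was not called (difference -0.14, 95% interval -0.35 to 0.07, adjusted p = 0.159 by limma). Of 12 alternatives, 3 brought it under the threshold, with differences down to -0.31, among them leaving out STO replicate 3 (adjusted p = 0.0198 by limma). In NSC the levels of Elavl3 and Elavl4 were 1.29- and 1.26-fold, and 0.927- and 0.997-fold, that of Elavl1.

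Elavl2 (HuB) stood apart from the other neuronal ELAVL genes, with 5.72 and 6.07 FPKM in NSC and 5.21, 5.38 and 4.84 FPKM in STO. The NSC samples were higher by 1.15-fold without overlap (difference 0.17 ± 0.062 SE, 95% interval 0.02 to 0.32, adjusted p = 0.0421 by limma). That call was the least firm of the set. It was lost in 9 of 12 alternatives, among them leaving out NSC replicate 1, NSC replicate 2, STO replicate 1 or STO replicate 3, where the adjusted p was 0.0746, 0.178, 0.0736 and 0.107. Its direction turned to -0.39 when the highest transcript alone stood for the gene. The log2 ratio of Elavl2 over Elavl1 was -1.53 ± 0.067 (SD, n = 2) in NSC and -1.84 ± 0.071 (SD, n = 3) in STO (exact permutation p = 0.1, two-sided, the smallest possible, 0.12 adjusted over the 6 ratios). With the highest transcript alone the direction turned, from a difference of 0.31 to one of -0.25.

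The similar totals of Elavl2 hid an estimated difference between its transcripts. Their loci overlap, so that how their reads are divided is again an estimate by Cufflinks. The STO levels of NM_207686 rested on 45.7 to 90 implied fragments per sample. Of the 7 transcripts listed, 3 were above 0 in any sample. NM_207686 had 3.07 and 3.25 FPKM in NSC and 0.886, 1.05 and 1.12 FPKM in STO, and was higher in NSC by 3.10-fold (difference 1.04 ± 0.078 SE, adjusted p = 0.000245 by limma over transcripts). NM_001177883 had 2.65 and 2.83 FPKM in NSC and 4.32, 3.70 and 3.72 FPKM in STO, and was higher in STO by 1.43-fold (difference -0.39 ± 0.082 SE, adjusted p = 0.00977). The second call was lost without NSC replicate 1 or NSC replicate 2, at an adjusted p of 0.0722 and 0.0510. NM_207686 made up 53.7% and 53.5% of the gene in NSC and 17.0%, 19.6% and 23.1% in STO, a shift of 33.7 percentage points in the means. Of the 3610 genes with several transcripts above 0, 79.5% had a smaller largest shift. The remaining transcript, NM_001357188, was above 0 in STO replicate 2 alone, at 0.624 FPKM. It shares its listed start and end with NM_001177883.

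The 2 main Elavl2 transcripts start at different places on the minus strand of chromosome 4, at position 91043187 for NM_001177883 and at position 91038746 for NM_207686. The 250 bases before each start are printed because the results above turn on the transcript used, with each CG in capitals. They lie at chr4:91043188-91043437 and at chr4:91038747-91038996 (mm9), and are read 5′ to 3′ on the minus strand.
Before NM_001177883: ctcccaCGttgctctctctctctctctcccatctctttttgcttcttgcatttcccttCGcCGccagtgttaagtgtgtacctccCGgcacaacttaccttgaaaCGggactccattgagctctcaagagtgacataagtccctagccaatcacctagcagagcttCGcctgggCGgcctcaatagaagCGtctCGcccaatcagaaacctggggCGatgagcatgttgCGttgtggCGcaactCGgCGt
Before NM_207686: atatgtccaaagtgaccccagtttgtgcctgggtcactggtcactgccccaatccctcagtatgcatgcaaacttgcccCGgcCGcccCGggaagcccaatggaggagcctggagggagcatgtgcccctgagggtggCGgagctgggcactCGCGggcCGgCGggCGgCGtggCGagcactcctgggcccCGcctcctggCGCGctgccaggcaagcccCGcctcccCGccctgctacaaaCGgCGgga
The first window held 14 CG and 54.4% G or C, and the second, nearer the 3′ end of the gene, held 18 CG and 69.6% G or C. Across the 24078 start windows of that length the median was 9 CG, and 61.2% held fewer than the first window and 71.2% fewer than the second. No expression value was assigned to a window, and starts are those listed for the transcripts.

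Elavl4, at chr4:109876342-110024516, was carried by 3 of its 6 listed transcripts. In the 2 NSC samples NM_001163399 made up 55.0% and 54.9%, NM_001163397 24.1% and 26.1%, and NM_010488 20.9% and 19.0% of the gene. Over all 10 genes, 25 transcripts were listed and 16 were above 0 in any sample. Of the 14 that passed the filter, 11 were higher and 3 lower in NSC. The tested transcripts of Nova2, Elavl3, Elavl4 and Msi1 passed it through NSC alone, so the filter fixed the direction of their differences. Of all 16257 transcripts tested, 77.1% were called, 39% higher and 38.1% lower. The 3 lower ones were both Ptbp1 transcripts and NM_001177883 of Elavl2.

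Both Musashi genes, which mark stem and progenitor cells, were higher in NSC. Msi1 had 15.9 and 15.9 FPKM in NSC and 0.343, 0.324 and 0.450 FPKM in STO. The STO values rested on 11.9 to 23.7 implied fragments, and the NSC mean was 42.7-fold higher (difference 3.62 ± 0.059 SE, adjusted p = 2.15e-08 by limma). Msi2 had 41.7 and 34.7 FPKM in NSC and 5.25, 5.00 and 3.57 FPKM in STO. It was 8.29-fold higher in NSC and had the largest standard error among the 9 tested genes (difference 2.81 ± 0.15 SE, adjusted p = 5.70e-06 by limma). Msi2 exceeded Msi1 by 2.61- and 2.18-fold in NSC and by 15.3-, 15.4- and 7.93-fold in STO. The log2 ratio of Msi1 over Msi2 differed by 0.81 between cell types, with an exact permutation p of 0.2 (two-sided, 0.2 adjusted over the 6 ratios). With 0.1 instead of 1 FPKM added, which compresses the low Msi1 level in STO less, the difference was 2.06 and the p 0.1 by the same exact test.

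FPKM is a level per length, so the members can also be placed in order within a cell type. In NSC the order of the means was Ptbp1 (94.5 FPKM), Msi2 (38.2), Ptbp2 (30.7), Elavl3 (24.1), Nova1 (18.3), Elavl4 (18.2), Msi1 (15.9), Nova2 (15.5), Elavl2 (5.90) and Srrm4 (0.117). The samples of Nova1 and Elavl4 overlapped, as did those of Msi1 and Nova2, and all other neighbours were separate. In STO the order was Ptbp1 (226 FPKM), Ptbp2 (14.9), Elavl2 (5.14), Msi2 (4.61), Nova1 (2.64), Msi1 (0.372), Elavl3 (0.0445) and Srrm4 (0.00672), followed by Nova2 and Elavl4, both listed at 0. Elavl2 and Msi2 overlapped in STO. The sum over the 10 genes was 261 to 262 FPKM in NSC and 252 to 255 FPKM in STO, so that Ptbp1 made up most of the sum in STO while other members made up most of it in NSC. Of the 10 genes, 5 were under 1 FPKM in all STO samples and 1, Srrm4, in all NSC samples.

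Some genes used as markers of neurons were also present in NSC, which bears on Elavl3, Elavl4 and Nova2 because those are used as neuronal genes. Of the 8 neuron markers, 6 were tested, 5 were higher in NSC and Tubb3 was not called (adjusted p = 0.477 by limma). Dcx, Snap25, Syt1 and Syp passed the level filter through NSC alone, so the filter fixed the direction of their differences. The list summed to 128 to 131 FPKM in NSC and 12.4 to 12.9 FPKM in STO, with Map2 giving 100 and 102 FPKM of it in NSC. Rbfox3 and Stmn2, which were under the filter and not tested, were near 0 in NSC, at 0.624 and 0.405 FPKM and at 0.100 and 0.061 FPKM, and were listed at 0 in STO. The 6 tested markers were above these levels in NSC. Synaptic Syp was at 11.1 and 8.36 FPKM in NSC and at most 0.109 FPKM in STO, Snap25 at 3.03 and 3.22 FPKM against 0 in every STO sample, and Syt1 at 1.33 and 1.18 FPKM against at most 0.0430 FPKM. Dcx, a marker of young neurons, was at 4.87 and 4.56 FPKM in NSC. The part of neurons in the NSC cultures in these values was not tested.

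Genes known to be bound or regulated by these proteins, or to regulate them, were examined as a list of 17. Of the 15 tested, 9 were higher and 6 lower in NSC, with a median difference of 0.81. Among all genes tested, 43.7% were higher and 41.9% lower, with a median of 0.023, and the list is described only. Gap43, a growth cone gene whose transcript ELAVL4 binds, had 362 and 360 FPKM in NSC and 0.818, 0.416 and 0.693 FPKM in STO. Dab1, whose exons NOVA regulates, had 48.7 and 49.0 FPKM in NSC and 0, 0.0337 and 0.0109 FPKM in STO. Both were higher in NSC (differences 7.79 and 5.62, adjusted p = 1.25e-08 and 5.07e-09 by limma). They passed the level filter through NSC alone, so the filter fixed that direction, and they were named for the size of their differences in these data. Flna, a filamin gene whose splicing PTBP1 controls, went the other way. It had 16.5 and 15.8 FPKM in NSC and 235, 251 and 239 FPKM in STO (difference -3.82, adjusted p = 1.44e-08 by limma). Gene totals of this kind do not measure the splicing of these transcripts.

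REST, which silences neuronal genes in non-neuronal cells through the RE1 element, is a known repressor of Srrm4, and SRRM4 in turn acts on Rest splicing. Rest had 5.62 and 6.01 FPKM in NSC and 15.8, 15.6 and 11.5 FPKM in STO. It was 2.46-fold higher in STO (difference -1.15 ± 0.14 SE, adjusted p = 0.000279 by limma). Srrm4 was close to the detection limit, as given above, and a link between its level and that of Rest was not tested. The core of the RE1 element, taken as CAGCACC, then any 2 bases, then GGACAG, was searched on both strands of each locus and the 10000 bases to either side. It was found once each in Msi2, Nova2 and Srrm4, in an intron each time, at chr11:88194975-88194989, chr7:19536948-19536962 and chr5:116968264-116968278 (mm9, all matches on the minus strand). The matches are shown with 20 bases to either side and the motif in capitals, since they bear on which regulators carry a RE1-like sequence.
Msi2: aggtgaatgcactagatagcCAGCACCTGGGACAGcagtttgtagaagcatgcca
Nova2: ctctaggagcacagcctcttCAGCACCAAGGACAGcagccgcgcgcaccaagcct
Srrm4: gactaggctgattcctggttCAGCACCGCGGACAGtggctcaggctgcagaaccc
Over the genome 2.07% of the 25414 genes held a match, and among the 2405 genes with a locus of at least 100000 bases it was 6.49%. The genes without a match here included Elavl3, Elavl4 and Msi1, all at 0.450 FPKM or less in STO, and no match says only that these letters are not in the searched span. Of the 285 tested genes with a match, 62.1% were higher and 29.5% lower in NSC, beside 43.7% and 41.9% of all genes tested. The form of the motif was chosen after several forms had been searched, so these shares are a description only. The matches in Msi2, Nova2 and Srrm4 lay 384606, 25711 and 73562 bases from the 5′ end of the locus. These matches are descriptions of sequence and were not tested for binding.

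The other RNA-binding proteins, compared as 59 genes in lists of paralogues, tissue-restricted splicing regulators, PTB partners, SR factors and translation factors, went in both directions. Of the 51 tested, 19 were higher in NSC (37.3%), 16 were lower (31.4%) and 16 were not called, with a median difference of -0.03. Of all 12292 genes tested, 43.7% were higher, 41.9% were lower and 1764 were not called, with a median of 0.023. After rescaling every sample to the same sum, 14 of the listed genes were higher and 25 lower, so that the balance between the directions depended on the scaling. The balance over all genes tested moved the same way, from 5375 higher and 5153 lower to 4684 and 5885. All 13 SR and SR-related factors and all 13 PTB partners and hnRNP proteins were tested, and 6 and 7 of them were not called. The median absolute difference was 0.27 and 0.20 for these lists of general factors, 1.46 for the 14 tested tissue-restricted regulators and 2.81 for the members, against 0.74 over all genes tested. Members and lists were chosen with earlier results of these data known.

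**Figure D4:**
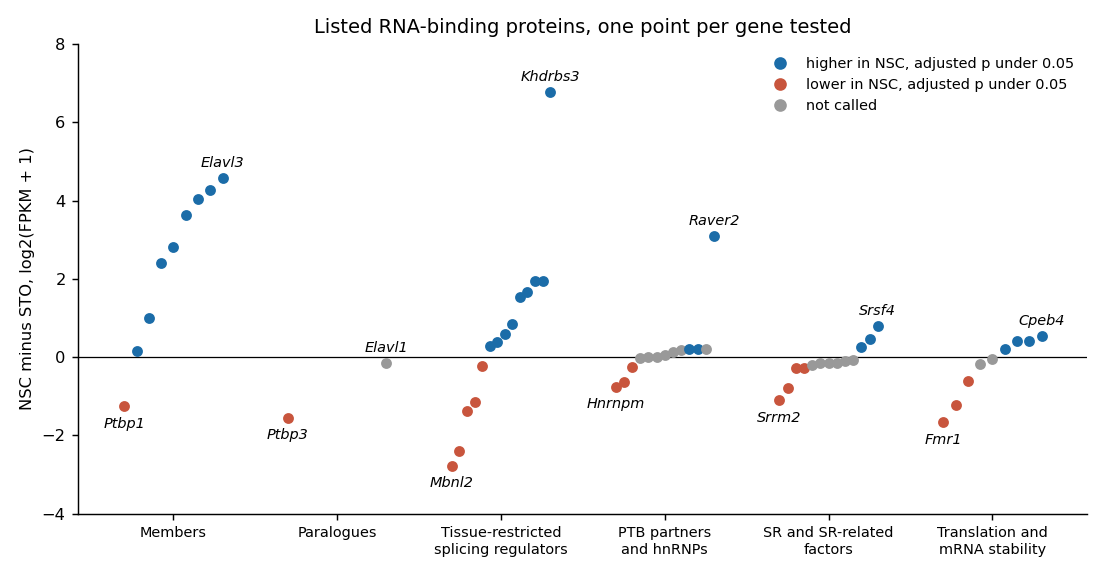
Difference between NSC and STO on the log2(FPKM + 1) scale for each tested gene of the members and of 5 lists of other RNA-binding proteins, ordered within a list, with the lowest and highest gene of each list named. Blue points were higher and red points lower in NSC, and grey points were not called, most of which lie in the PTB partner and SR lists near 0.

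Among these other genes the largest differences toward NSC were in Khdrbs3 (SLM2), a STAR protein that sets neuronal exons, with 108 FPKM in both NSC samples, and in Raver2, a PTB partner, with 7.17 and 7.83 FPKM. Both, and Rbm24 at 2.71 and 2.95 FPKM in NSC, were listed at 0 in all STO samples. Qk, the quaking gene of glia and neural progenitors, had 229 and 223 FPKM in NSC and 56.9, 63.3 and 54.1 FPKM in STO. The difference of Qk was 1.94, and 0.72 when the highest transcript alone stood for the gene. Rbm20 had 2.35 and 2.43 FPKM in NSC and at most 0.0874 FPKM in STO. The 5 were called higher in NSC, with differences from 1.67 in Rbm20 to 6.77 in Khdrbs3. All of them but Qk passed the level filter through NSC alone, so the filter fixed the direction of those differences. Apart from the paralogue Ptbp3, given above, the largest differences toward STO were in the muscleblind genes, with Mbnl2 at 13.4 and 15.1 FPKM in NSC and 99.8, 112 and 97.3 FPKM in STO, and Mbnl1 5.71-fold higher in STO. Fmr1, Rbfox2 and Cpeb1 followed in that order of difference, at 3.29-, 2.73- and 3.84-fold higher in STO, and all 5 were called (differences -2.77 to -1.21). Cpeb1 passed the level filter through STO alone, which fixed the direction of its difference.

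The gene closest in level to each tested member over the 5 samples was sought among the listed RNA-binding proteins and the other members, by the Euclidean distance in log2(FPKM + 1). Nova2 and Elavl4 were closest to each other, at a distance of 0.31, and Elavl3 was closest to Elavl4, at 0.57. Ptbp2 was closest to Celf2, at 0.25, and Ptbp1 to Hnrnpm, at 0.68. Msi1 was closest to Nova2, at 0.80, Elavl2 to Cpeb2, at 0.63, and Nova1 and Msi2 to each other, at 1.82. The distance compares levels in 2 cell types and says nothing of shared control.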

How the data were processed

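Total RNA of 2 NSC and 3 STO samples was made into stranded mRNA libraries and sequenced as paired ends, and per the study's methods trimmed reads were placed on the mm9 genome by Hisat2, after which Cufflinks 2.2.1 estimated levels of RefSeq transcripts. The authors deposited FPKM values per transcript with the bounds of their intervals. Depth had been divided out by then, so no count test was run. The number of fragments behind a value was inferred from its interval, taken as 2 Poisson standard deviations to each side.

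Transcripts were given symbols through a RefSeq table of GRCm38.p6, used for names only, and FPKM was summed over transcripts of 1 symbol with overlapping loci. Transcripts without a symbol kept their identifiers. Genes with a mean of at least 1 FPKM in NSC or STO were tested with limma 3.58.1 in R 4.3.3 (trended eBayes, all 5 samples, no covariate) on log2(FPKM + 1), with Benjamini-Hochberg adjustment over all genes tested and a threshold of 0.05. Fold changes on that scale understate changes of low genes. Transcripts were tested the same way. Paralogue ratios were tested by exact permutation. On simulated data of the same size, 94 of 100 genes changed by 1 on the log2 scale and 100 of 100 changed by 2 were recovered, with 7 unchanged genes called among 12292. For the 16257 transcripts recovery was lower, at 68 of 100 changed by 1 and 88 of 100 changed by 2, with 13 unchanged transcripts called. No other features were changed in the simulation, while 85.6% of genes and 77.1% of transcripts were called in the data. The simulated recovery and false calls therefore do not carry over to the number of false calls in the data.

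The members and lists were chosen with earlier results of these data known. Besides the members and their paralogues Ptbp3, Elavl1 and Srrm3, genes were named by rule: the 5 largest called differences in each direction among the RNA-binding proteins outside the members and paralogues, the 4 largest among targets and regulators (1 of them is not reported here), Rest, and the nearest gene to each tested member. Markers were given by list, and the single markers named were chosen after their values were seen. Sequences and exons were read from the NCBIM37 genome (mm9) and its GENCODE annotation, and the form of the RE1 motif was chosen after several forms had been searched. Alternatives were another pseudocount, no level filter, a common sum (TPM), quantile normalization, no trend, a replicate block, the highest transcript alone, and leaving out each sample.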

Additional observations from a re-analysis of the deposited data

How the results depend on the processing

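Of the 9 called members, 8 (all but Elavl2) kept their direction and side of the threshold in all 12 alternatives, and so did all 5 of the RNA-binding proteins named as higher and all 5 named as lower in NSC. Those RNA-binding proteins were named for the largest called differences in these same data, so that their calls held is a description and no support. With the highest transcript alone, 2 members rather than 1 were lower in NSC, the difference of Elavl2 was -0.39, and its ratio over Elavl1 changed by -0.25 between cell types, because a single transcript then stands for the gene. After rescaling to a common sum, 25 rather than 16 of the listed RNA-binding proteins were lower in NSC, since the STO samples have smaller FPKM sums (385485 to 399970 against 442905 to 446393) and the median of all genes moved by -0.16. Of all calls, 44.3% rather than 51.1% were then higher in NSC. Same-numbered samples correlated at 0.011 and 0.060 in their deviations from the group mean. With 2 NSC samples those deviations mirror each other, so these values cannot decide whether the samples were paired. With the replicate block, which drops STO replicate 3, 7 members were higher and 1 lower in NSC, 18 listed RNA-binding proteins were higher and 17 lower, and 2 rather than 3 member transcripts were lower, with NM_001177883 at an adjusted p of 0.0546 and Elavl2 at 0.144 (limma). Leaving out an NSC sample leaves 1, which is assumed to vary like the STO samples. Values under 1 FPKM are limited by few fragments.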
